A study of Mus musculus with 3 samples.

Results

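The mitochondrial ribosomal protein genes are the nuclear genes that encode the protein subunits of the ribosome inside mitochondria. They were taken here as the protein-coding mouse genes whose symbol begins with Mrpl or Mrps followed by a digit, and they came to 78 of 21887 protein-coding genes on placed chromosomes. Of these, 49 carried an Mrpl symbol and 29 an Mrps symbol. Large and small subunit genes are named below by these symbols alone, and the place of each protein in the ribosome was not checked. The group was selected on the measured strength of one member, Mrpl45, whose site lay among those of highest fold in these same lists. The rank of Mrpl45 and the counts that follow are therefore descriptions, and no test was made over the group.

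The mitochondrial ribosome translates the messenger RNAs of the mitochondrial genome, which encode core subunits of the respiratory chain and of ATP synthase. Its small subunit binds and decodes the messenger RNA, and its large subunit joins the amino acids and releases the new chain at the inner membrane. All of its proteins are made in the cytosol from nuclear genes and imported. Brown adipocytes are rich in mitochondria, since their heat production depends on the respiratory chain.

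ZFP410 is a zinc finger protein that binds DNA. Its sites had been mapped by CUT&Tag, a method in which an antibody brings a transposase to the bound protein so that nearby chromatin is cut and tagged for sequencing. The cells were brown preadipocytes, the precursors of thermogenic fat cells, sorted as Lin-CD29+CD34+Sca1+ from brown fat of male wild-type C57BL/6 mice. The study asked about a prostaglandin E2 and EP3 axis and WTAP protein in brown fat development, per its title.

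The first group was the ZFP410 antibody on cells grown in brown adipocyte differentiation medium for 3 days (induced cells). The second was the same antibody on untreated cells, and the third was control IgG on untreated cells. All 3 groups share the cell source, the strain and the sex, none carries a genetic change, and IgG from induced cells was not analysed here. With 1 library in each group, no difference below could be set against a spread between replicates, and no test between groups was made. Whether a higher signal means more cells with ZFP410 at a site or more ZFP410 per cell cannot be told apart. Peak lists do not measure expression, so the cell identity could not be checked against RNA. Of 6 preadipocyte markers, 2 held a summit in the induced list (Pdgfra and Ebf2), and 0 in the untreated and IgG lists. Of 6 markers of other cells that the sort could hold, 1 held a summit in the induced list (Adgre1), and 0 in the untreated and IgG lists. Of all protein-coding genes, 15.8% held a summit inside or within 1 kb in the induced, 7.82% in the untreated and 0.53% in the IgG list. Marker counts this small say nothing of cell identity.

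The lists held 7475 peaks in the induced library, 3256 in the untreated library and 480 in the IgG library. The deposited peaks carry no read totals, but the fold and p-value of each peak gave back whole summit fragments. The lowest summit called held 4 fragments in the induced, 3 in the untreated and 2 in the IgG list, and the median summit held 7 in the induced, 4 in the untreated and 4 in the IgG list. Depth in induced cells was 2.01 times that of the untreated and 14.1 times that of the IgG library. Its genome background, the number of fragments given for an average position, was 2.24 times that of the untreated library. A site of equal enrichment was thus more readily listed in induced cells. This difference in depth touches every count set between the ZFP410 libraries below.

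The start-site windows of 5 members carry the main observations. Each window runs from 250 bases before to the 50 bases that begin with the RefSeq start, on the strand of the gene, as RefSeq gives it for GRCm38.p6, the build whose coordinates mm10 uses. Capitals mark matches, on either strand, to TCCCATAAT (the ZFP410 core), CCGGAAGT (ETS factors), AAGATGGCG (YY1) and GCGCANGCG (NRF1, one base free). The windows are Mrpl45 at chr11:97315466-97315765 on the plus strand, Mrpl33 at chr5:31613701-31614000 on the plus strand, Mrpl32 at chr13:14612988-14613287 on the minus strand, Mrps26 at chr2:130563507-130563806 on the plus strand and Mrps11 at chr7:78782881-78783180 on the plus strand. Mrpl45 is shown as the strongest site of the group, Mrpl33 for its ZFP410 core, Mrpl32 for overlapping peaks in both ZFP410 lists, Mrps26 for its clustered matches, and Mrps11 for a start region shared with a second member, Mrpl46.
Mrpl45: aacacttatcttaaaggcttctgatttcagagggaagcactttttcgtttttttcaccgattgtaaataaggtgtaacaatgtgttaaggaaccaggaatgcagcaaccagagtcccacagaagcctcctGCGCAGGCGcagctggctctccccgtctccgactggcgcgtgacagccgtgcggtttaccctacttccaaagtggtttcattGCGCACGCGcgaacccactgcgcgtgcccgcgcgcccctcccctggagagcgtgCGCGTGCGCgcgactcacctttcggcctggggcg
Mrpl33: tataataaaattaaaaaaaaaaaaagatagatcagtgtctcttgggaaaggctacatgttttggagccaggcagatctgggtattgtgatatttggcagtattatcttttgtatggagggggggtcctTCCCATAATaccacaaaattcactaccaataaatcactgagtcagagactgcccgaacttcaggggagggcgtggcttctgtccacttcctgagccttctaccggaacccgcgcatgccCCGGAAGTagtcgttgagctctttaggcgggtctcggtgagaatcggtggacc
Mrpl32: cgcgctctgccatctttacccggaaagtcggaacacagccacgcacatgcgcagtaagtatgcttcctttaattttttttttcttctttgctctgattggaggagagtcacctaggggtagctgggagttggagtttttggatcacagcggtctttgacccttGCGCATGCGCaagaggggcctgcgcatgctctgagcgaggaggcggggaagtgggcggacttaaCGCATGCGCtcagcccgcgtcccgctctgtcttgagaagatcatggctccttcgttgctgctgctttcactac
Mrps26: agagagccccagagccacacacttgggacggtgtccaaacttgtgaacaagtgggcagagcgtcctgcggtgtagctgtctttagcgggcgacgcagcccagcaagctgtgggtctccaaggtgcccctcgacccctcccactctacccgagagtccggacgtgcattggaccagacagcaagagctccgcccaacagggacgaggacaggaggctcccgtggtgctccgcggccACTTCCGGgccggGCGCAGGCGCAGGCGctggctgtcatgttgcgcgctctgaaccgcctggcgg
Mrps11: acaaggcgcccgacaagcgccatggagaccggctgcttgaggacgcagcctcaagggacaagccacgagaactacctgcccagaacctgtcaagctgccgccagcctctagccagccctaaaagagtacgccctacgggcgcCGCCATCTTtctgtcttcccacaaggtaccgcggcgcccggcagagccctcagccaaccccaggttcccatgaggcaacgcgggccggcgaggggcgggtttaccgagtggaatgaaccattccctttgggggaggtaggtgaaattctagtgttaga

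Of the 78 mitochondrial ribosomal protein genes, 20 held a ZFP410 summit in induced cells and 8 in untreated cells, and 1 held a summit in the IgG list. A gene counted when a summit lay inside it or within 1 kb of either end. The share was 25.6% (95% Wilson interval 17.3 to 36.3) in induced cells, where 15.8% of all protein-coding genes held a summit. In untreated cells the share was 10.3% (5.29 to 18.95), against 7.82% of all protein-coding genes. The IgG share was 1.28% of members and 0.53% of all protein-coding genes. These intervals cover the counting of genes only. Counting only induced peaks of at least 7 fragments, the enrichment of the lowest untreated call, left 8 members (10.3%, against 10.2% of all protein-coding genes) in induced cells, as many as in untreated cells. With a −log10 q of at least 5, 7 members (8.97%, against 9.01%) were left in induced cells and 2 (2.56%, against 2.37%) in untreated cells.

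Nearly all occupied members had a summit at a gene end. With summits farther than 1 kb from either end left out, 19 members (24.4%) were occupied in induced cells, 7 (8.97%) in untreated cells and 0 of 78 in the IgG library, which allows up to 3.85%. The same rule took 8.43% of all protein-coding genes in the induced, 3.73% in the untreated and 0.0366% in the IgG list. RefSeq start windows existed for 69 of the 78 members and for 17492 protein-coding genes. A summit lay within 300 bp of a start for 18 of 69 members (26.1%) in induced cells, 6 (8.70%) in untreated cells and 0 in the IgG library, which allows up to 4.35%. For all genes with a window, the shares were 6.97% in induced cells, 2.98% in untreated cells and 0.00572% in the IgG library. Members are short genes, with a median length of 7690 bp against 17169 bp for all protein-coding genes, so summits inside genes had fewer bases to fall in.

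One member was decided by the 1 kb limit of the gene-end rule. The induced summit of Mrpl18 lay 1041 bp inside its gene, 41 bp past the limit, and the next were those of Mrpl45, 797 bp in induced and 798 bp in untreated cells from the nearer gene end. Under the rule that also counts the inside of genes, the outermost summits outside a gene were 408 bp from Mrpl51 and 296 bp from Mrpl32 in induced cells, and 479 bp from Mrpl58 and 216 bp from Mrps6 in untreated cells. The nearest summits beyond 1 kb were 3523 bp from Mrpl12 and 4914 bp from Mrps36 in induced cells, and 3686 bp from Mrpl49 and 7488 bp from Mrpl33 in untreated cells. In the IgG list, the summit of Mrps28 lay inside the gene, and the next lay 9331 bp from Mrpl3.

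Genes with Mrpl and with Mrps symbols were represented at like shares. Of the large subunit genes, 13 of 49 (26.5%, 16.2 to 40.3) held a summit in induced cells and 4 (8.16%, 3.22 to 19.2) in untreated cells. Of the small subunit genes, 7 of 29 (24.1%, 12.2 to 42.1) held one in induced cells and 4 (13.8%, 5.50 to 30.6) in untreated cells. The intervals of the subunits overlapped widely in each library.

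In all, 22 members held a summit in at least 1 ZFP410 list, 1 more in the IgG list, and 55 members, 35 of the large and 20 of the small subunit, held one in no list. The 6 members with a summit in both ZFP410 lists (7.69%, where 5.29% of all protein-coding genes were in both) were Mrpl2, Mrpl32, Mrpl45, Mrps6, Mrps7 and Mrps18b. A further 14 (17.9%, against 10.5% of all) were in the induced list alone, namely Mrpl3, Mrpl10, Mrpl11, Mrpl18, Mrpl21, Mrpl33, Mrpl34, Mrpl46, Mrpl51, Mrpl55, Mrps5, Mrps11, Mrps16 and Mrps26. Mrpl58 and Mrps31 (2.56%, against 2.54% of all) were in the untreated list alone.

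**Figure D1:**
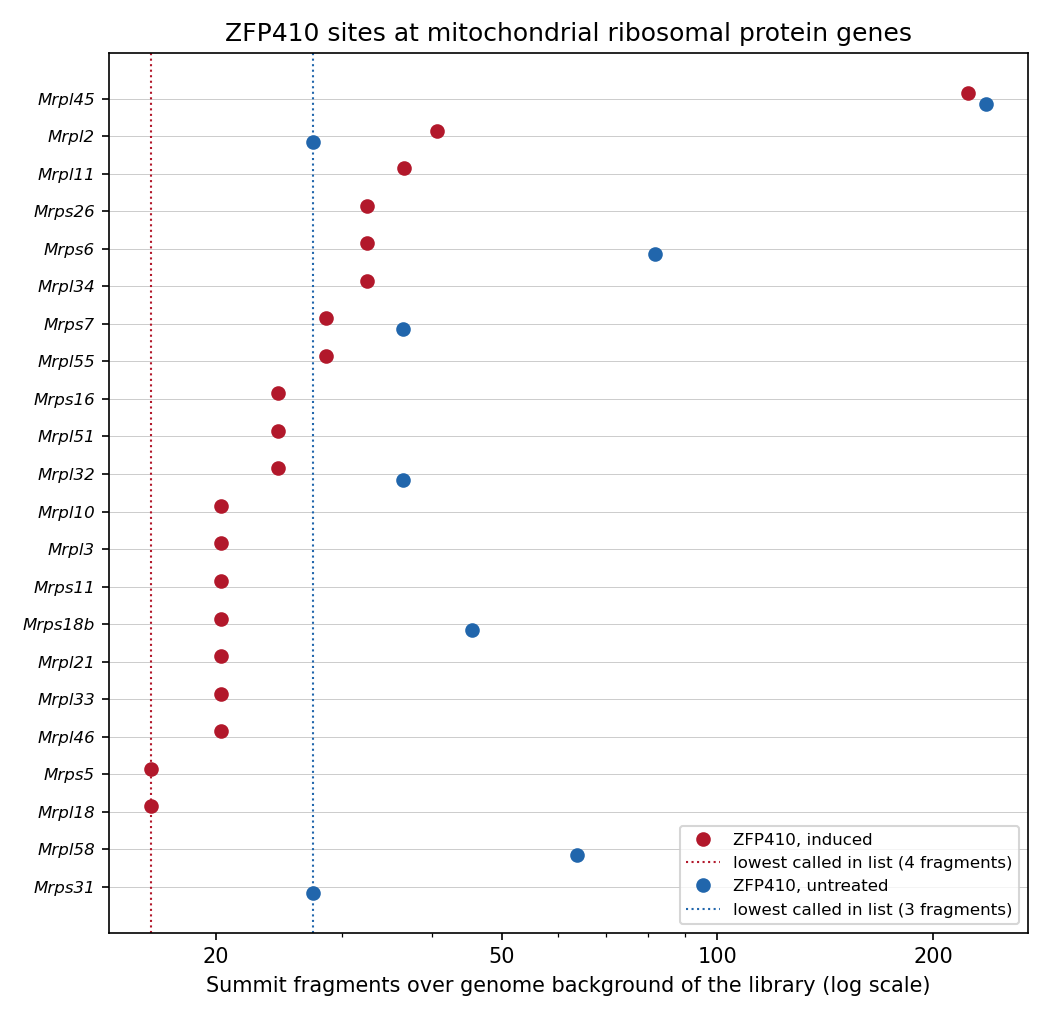
Enrichment of the strongest ZFP410 summit at each of the 22 occupied mitochondrial ribosomal protein genes, given by summit fragments relative to each library's own genome background (log axis), in the induced (red) and untreated (blue) library. Dotted lines mark the lowest summit called, 4 fragments in the induced and 3 in the untreated list; the IgG list is not drawn. Mrpl45 lies far to the right in both libraries and all other members lie below 100. The 2 points of Mrps6 are different sites: the induced one is the deep peak of 8 fragments and the untreated one the start-site peak of 9. The induced start-site peak of Mrps6, with 6 fragments, is not drawn.

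Mrpl45 encodes a large subunit protein with no bacterial counterpart, which in human mitochondria sits by the exit of the peptide tunnel and helps hold the ribosome at the inner membrane. Its ZFP410 peak held 55 summit fragments in induced cells and 26 in untreated cells. No IgG peak lay within 20 kb of the start site. The induced peak ran over chr11:97315473-97316093 (621 bp, summit at 97315720), and the untreated peak over chr11:97315547-97316262 (716 bp, summit at 97315721). Both summits lay just inside the transcribed side of the RefSeq start, at 4 bp in induced and 5 bp in untreated cells, 1 bp apart. The authors' fold at the summit was 44.9 in the induced list, where its rank was 18 of 7475, and 24.3 in the untreated list, where it ranked 6 of 3256. Among peaks within 1 kb of a gene end, it was the third of 1590 in the induced list and the second of 726 in the untreated list. Fold values of separate lists are not on a common scale.

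Relative to the background of each library, enrichment at the site did not differ beyond counting error. The summit stood 223 times over the genome background in induced cells and 237 times in untreated cells, a ratio of 0.944 with an exact binomial 95% interval of 0.582 to 1.57. At the same enrichment, the shallower IgG library would have held 5.15 fragments by the induced peak and 5.46 by the untreated one, above its lowest called summit of 2. These numbers are scaled by genome background. Scaled by depth, 14.1 times the IgG library for induced and 7.02 times for untreated cells, both would be lower but still above 2. The Mrpl45 site is the single member site for which the IgG library was deep enough to list a peak of equal enrichment. Its start window held 3 matches to GCGCANGCG and 0 to the ZFP410 core. All 3 matches fell inside the induced peak, with centres 120, 38 and 16 bp from the summit.

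**Figure D2:**
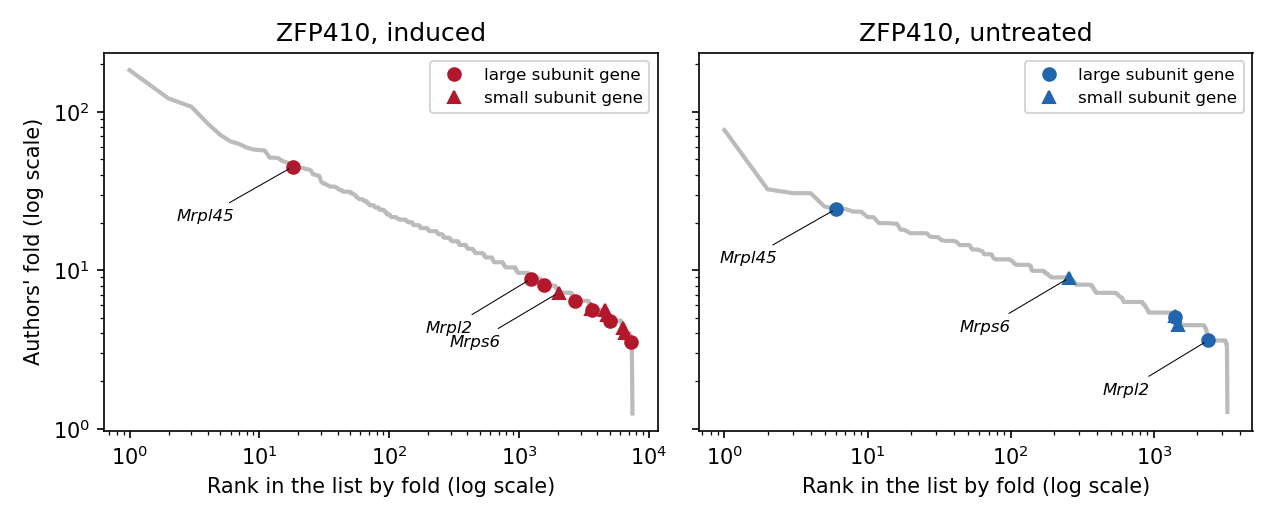
The authors' fold of every peak against its rank in the induced (left) and untreated (right) list, both axes logarithmic, with peaks at large subunit genes as circles and at small subunit genes as triangles. Mrpl45 stands at rank 18 in the induced and rank 6 in the untreated list, and most other member peaks lie in the lower reaches of the curve.

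The sites of the remaining members held few fragments. The 21 distinct induced peaks at members held 4 to 55 summit fragments with a median of 6, against a median of 7 over the 3984 induced peaks at all protein-coding genes. The 8 untreated peaks held 3 to 26 with a median of 4.5, against 4 over 1849 peaks. A −log10 q of 5 was reached by 7 of the 21 induced member peaks (33.3%), against 51.4% at all genes, and by 2 of the 8 untreated ones (25%), against 27.7%. The 2 untreated peaks were those of Mrpl45 and Mrps6. Apart from Mrpl45, the highest member summit held 10 fragments in induced cells, at Mrpl2, and 9 in untreated cells, at Mrps6.

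Among large subunit genes, Mrpl2 and Mrpl11 followed Mrpl45 in the induced list. Mrpl2, whose protein binds the ribosomal RNA close to the peptidyl transferase centre, held 10 fragments in induced cells at chr17:46646156-46646454 and 3 in untreated cells at chr17:46646280-46646406. The authors' fold was 8.83 in the induced list and 3.60 in the untreated list, where 3 fragments is the lowest number called. Mrpl11, a protein at the base of the stalk that recruits elongation factors, held 9 fragments at chr19:4962050-4962345 (fold 8.02) in induced cells, with its summit at -183 bp from the start. No untreated or IgG peak overlapped it.

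Mrpl34, a small protein conserved from bacteria, held 8 fragments at chr8:71464541-71464822 (fold 7.22) in induced cells. Mrpl55, which has no bacterial counterpart, held 7 fragments at chr11:59202467-59202718 (fold 6.42). Mrpl32 is a protein that the m-AAA protease must cleave before it enters the large subunit, as shown in yeast and mouse. It held 6 fragments in induced cells at chr13:14613064-14613456 (fold 5.62) and 4 in untreated cells at chr13:14613029-14613178 (fold 4.50). The induced summit lay inside the neighbouring gene Psma2 and the untreated one between both genes, 182 bp apart, so the overlapping peaks need not mark 1 position. Mrpl51 held 6 fragments in induced cells at chr6:125191703-125191917 (fold 5.62), 408 bp before its start and inside the neighbouring gene Ncapd2.

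The other large subunit genes held near the least that the caller listed. Mrpl3, Mrpl10, Mrpl21, Mrpl33 and Mrpl46 held 5 fragments each in induced cells, and Mrpl18 held 4. Mrpl3 sits near the peptidyl transferase centre and Mrpl10 in the elongation factor stalk. The Mrpl18 summit lay inside the annotated gene at -655 bp from its nearest RefSeq start, the farthest among the induced members. Mrpl33 is the single member with a ZFP410 core match in its start window. That match (chr5:31613829-31613837) was centred at -118 bp from the start, 175 bp from the induced summit and 109 bp outside the edge of the induced peak, while the ETS match of the same window lay inside the peak.

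Mrps6 was the strongest small subunit gene in untreated cells. Its protein belongs to the platform of the small subunit, as its bacterial relative S6 does. The start-site peak held 6 fragments in induced cells (chr16:92057998-92058219, fold 5.59) and 9 in untreated cells (chr16:92058043-92058219, fold 8.99, rank 257). The ratio was 0.298 (0.0872 to 0.936), the single member whose interval lay off 1. Scaled by depth in place of genome background, it was 0.332 (0.0972 to 1.04), and the interval then included 1. It was 1 of 6 ratios examined, and its interval was not adjusted for that or for the selection of peaks listed in both libraries. Induced cells also held peaks of 8 and 6 fragments deep in the gene, 45495 and 47555 bp past the start, with no untreated peak over them.

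Mrps7, a head protein of the small subunit beside the path of the transfer RNAs, held 7 fragments in induced cells at chr11:115603887-115604176 (fold 6.42) and 4 in untreated cells at chr11:115603926-115604134 (fold 4.50). Mrps26, a protein with no bacterial counterpart, held 8 fragments in induced cells at chr2:130563483-130563689 (fold 5.71), over a local background 2.33 times the genome background. Its window held 1 ETS and 2 overlapping NRF1 matches at the start, with centres 111 to 131 bp from the induced summit and outside the peak. Mrps18b held 5 fragments in induced cells (chr17:35916183-35916933, fold 4.31) and 5 in untreated cells (chr17:35916299-35916526, fold 5.11), with summits 307 bp apart. Mrps16, a subunit in which a mutation causes a respiratory chain deficiency in humans, held 6 fragments in induced cells. Mrps11 held 5 and Mrps5, a protein by the messenger RNA channel, held 4.

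Mrpl58 and Mrps31 were listed in untreated cells alone. Mrpl58 is a peptidyl-tRNA hydrolase of the large subunit that in human cells frees stalled mitochondrial ribosomes. It held 7 fragments at chr11:115413146-115413409 (fold 5.08), 9401 bp from its RefSeq start and 479 bp past the gene's far end, over a local background 5.23 times the genome background. Mrps31 held 3 fragments at chr8:22419251-22419436 (fold 3.60), inside the gene and 7946 bp past its RefSeq start. Equal enrichment would have given 15.7 and 6.72 fragments in the induced library, above its lowest called summit of 4. These are expected numbers from few fragments, and the 3 at Mrps31 are the lowest number called in the untreated list. Counting error could move such sites across the limit. Absence from the induced list was therefore not read as less binding after induction. Neither site lay near a start, unlike the other 6 untreated members.

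Mrps28 held the single IgG summit of the group, and no ZFP410 summit was listed for it. The IgG peak lay deep inside the gene at chr3:8832163-8832634 and held 6 fragments (fold 6.58, rank 70 of 480). None of the 21 induced and none of the 8 untreated member peaks overlapped an IgG peak. The IgG list held just 120 peaks at all protein-coding genes, and the overlap of all ZFP410 peaks with it is not given here. At equal enrichment, the IgG library would have held a median of 0.562 fragments at the induced and 0.944 at the untreated member sites, below its lowest called summit. Except at Mrpl45, the absence of an IgG peak was thus not informative at this depth.

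For the 6 members with overlapping peaks in both lists, the median ratio of enrichment, induced over untreated, was 0.725, against 0.826 over all 1296 shared peaks of low local background. Only peaks listed in both libraries enter these ratios. The lowest call stood 27.3 times over genome background in the untreated list and 16.2 times in the induced list. Selection by unequal limits can lower such ratios, and its size was not tested. Mrpl2 had the highest ratio, 1.49 (0.383 to 8.41). Mrps7 stood at 0.781 (0.199 to 3.64), Mrpl32 at 0.670 (0.159 to 3.23), and Mrps18b at 0.446 (0.103 to 1.94). Mrpl45 had the narrowest interval, since it held the most fragments. Of the 6 intervals, 0 lay above 1 and 1, that of Mrps6, lay below it. Summits were within 100 bp of each other at 4 of the 6, and they lay 182 bp apart at Mrpl32 and 307 bp apart at Mrps18b, so those ratios may set different positions against each other. The intervals cover the counting of fragments in 1 library each and not the spread between cultures.

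**Figure D3:**
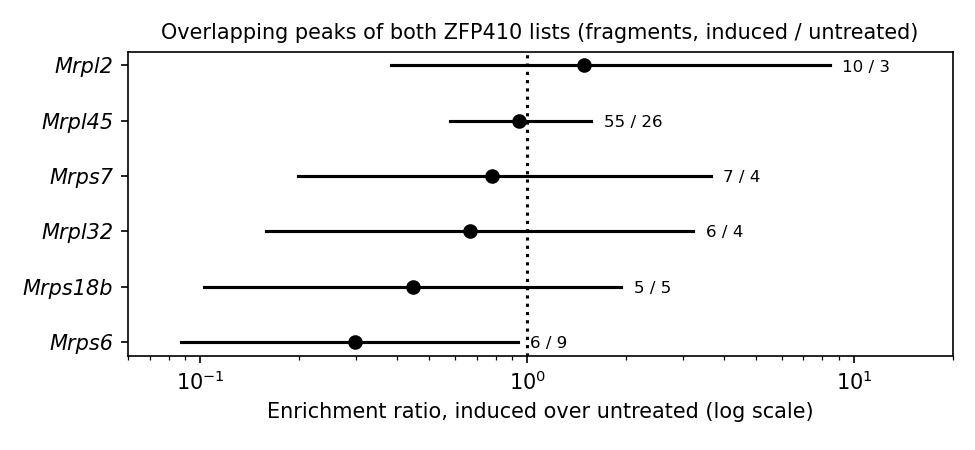
Ratio of enrichment, induced over untreated (log axis), at the 6 members with overlapping peaks in both ZFP410 lists, with exact binomial 95% intervals as bars and the summit fragments, induced then untreated, at the right. The dotted line marks equal enrichment. The bar of Mrps6 ends at 0.936, and the bars of the other members cross 1.

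Overlap between the lists was partial. Of the 21 induced member peaks, 6 (28.6%, 13.8 to 49.96) overlapped an untreated peak by at least 1 bp, against 23.0% of induced peaks at all protein-coding genes. Of the 8 untreated member peaks, 6 (75%, 40.9 to 92.85) overlapped an induced peak, against 50.95%. The 15 induced member peaks without an untreated partner would have held 1.79 to 4.02 fragments in the untreated library at equal enrichment. Of them, 5 would have reached 3, the lowest number called there: those of Mrpl11, Mrpl34, Mrpl55, Mrps26 and the deep Mrps6 peak with 8 fragments. For the other 10, the number expected at equal enrichment lay below 3. These are expected numbers, and counting error could move single sites across that limit. Presence in the induced list alone was therefore not read as more binding after induction.

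Where a member was occupied, the summit lay close to its start. The nearest induced summit was within 100 bp of a RefSeq start for 10 of 20 members and within 300 bp for 18 of 20, and it ranged from -655 to 79 bp from the start. Over all 2788 protein-coding genes with an induced summit and a start entry, 19.6% had it within 100 bp and 43.8% within 300 bp, and 44.2% had it more than 1 kb away, where 0 of the 20 members did. In untreated cells, 6 of 8 members had the summit within 300 bp, against 38.0% of 1375 genes. The median distance without regard to sign was 101 bp for members and 478 bp for all genes in induced cells, and 111.5 bp and 984 bp in untreated cells. Members are short genes, with a median length of 7690 bp against 17169 bp, which leaves fewer positions far from a start. Its part in these distances was not tested.

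**Figure D4:**
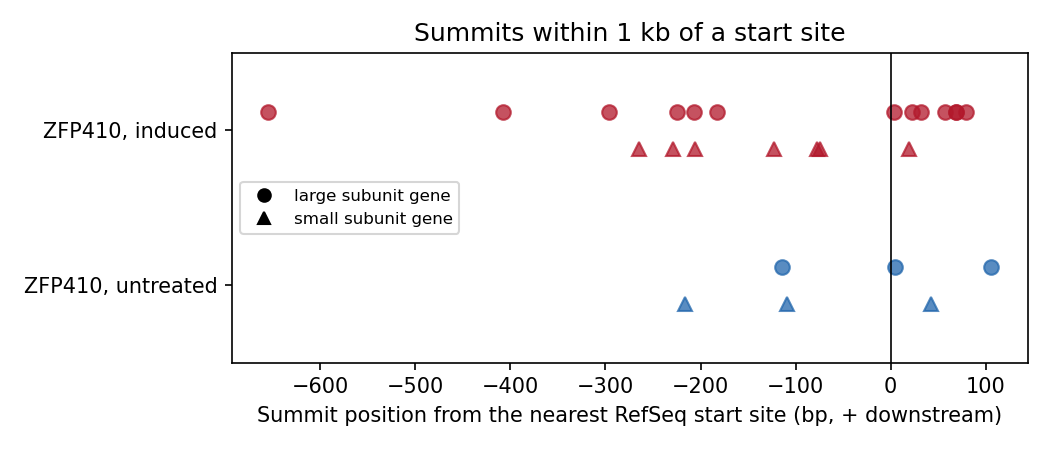
Position of each member summit that lay within 1 kb of a RefSeq start, in bp with positive values downstream, for the induced (upper, red) and untreated (lower, blue) library, with large subunit genes as circles and small subunit genes as triangles. Summits of both subunits fall between -655 and 106 bp from the start.

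Many member peaks also lie at a second gene. Of the 20 members with an induced summit, 14 (70%) shared the peak with another protein-coding gene, and 5 of 8 (62.5%) did in untreated cells. Among all occupied protein-coding genes the shares were 24% in the induced and 17.8% in the untreated list. Most partners were divergent genes on the opposite strand. Mrpl32 lay 205 bp from the start of Psma2, a proteasome subunit gene. Mrps7 lay 224 bp from Gga3, a clathrin adaptor gene, and Mrpl2 lay 157 bp from Klc4, a kinesin light chain gene. Mrpl18 lay 238 bp from Tcp1, a chaperonin subunit gene, Mrpl51 lay 614 bp from Ncapd2, a condensin subunit gene, and Mrps18b lay 756 bp from Ppp1r10, which encodes a regulator of protein phosphatase 1.

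The Mrpl46 and Mrps11 starts were 42 bp apart on opposite strands, and 1 induced peak of 5 fragments, chr7:78783029-78783283, lay at a large and a small subunit gene at once. Its summit fell at 32 bp from the Mrpl46 start and at -74 bp from the Mrps11 start, and the YY1 match of the Mrps11 window touched the peak. Mrps6 shared its start region with Slc5a3, a myo-inositol transporter gene on the same strand whose start lay 14 bp away. The remaining partners were Ighmbp2 of Mrpl21, Zfp661 of Mrps5, Abhd8 of Mrpl34, Cfap70 of Mrps16 and Lrrc46 of Mrpl10. Cfap70 was reached at its far end, since its start lay 58610 bp from the summit on the same strand, and Lrrc46 had no entry for its start. A shared peak cannot be assigned to either gene.

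Shared starts were common in the group before any binding was considered. Another protein-coding gene lay at the start site, by the same 1 kb rule, of 33 of 69 members (47.8%), against 17.3% of 17492 genes. Among those 33 members, 12 (36.4%) had an induced summit within 300 bp, against 14.3% of all genes with such a neighbour. Among the 36 members with no other gene at the start, 6 (16.7%) did, against 5.44% of all such genes. In untreated cells the counts were 5 of 33 (15.2%, against 5.22%) and 1 of 36 (2.78%, against 2.52%). These counts of 12 and 6 are small, and the differences from all genes were not tested.

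The start windows were searched on both strands for the motifs spelled out above and for the strict NRF1 word GCGCATGCG, each match of which also matches GCGCANGCG. The ZFP410 core occurred in 1 of 69 member windows (1.45%), that of Mrpl33, and in 0.189% of the 17492 windows of all genes. ETS matches occurred in 12 members (17.4%, against 5.69%), strict NRF1 matches in 7 (10.1%, against 2.61%), YY1 matches in 8 (11.6%, against 2.14%) and relaxed NRF1 matches in 16 (23.2%, against 9.63%). Over the 805 protein-coding genes with an induced summit in the window, the shares were 0.124% for the ZFP410 core, 12.8% for ETS, 5.09% for strict NRF1, 3.23% for YY1 and 20% for relaxed NRF1. By the same window rule, 12 of 69 members held an induced summit, against 4.60% of all genes. Of the 12 members with an ETS match 1 did (Mrps26), against 10.4% of all genes with that match, and of the 7 with a strict NRF1 match 0 did, against 8.97%. Of the 8 with a YY1 match 1 did (Mrps11), against 6.95%, and of the 16 with a relaxed NRF1 match 2 did (Mrpl45 and Mrps26), against 9.56%. This rule leaves out summits beyond the window. With summits inside the gene or within 1 kb counted, the numbers were 5 of 12 for ETS and 3 of 7 for strict NRF1. They were 1 of 8 for YY1 and 5 of 16 for relaxed NRF1, where 20 of the 69 members with a window held such a summit. Under this wider rule, all genes with each match were not counted. These member counts therefore cannot be set against the all-gene percentages of the window rule. A strict NRF1 match touched the induced peak at Mrpl32 and Mrps18b, and not at Mrpl10. A match says only that these letters are there, and no match that they are not in this window.

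Base composition was near that of all genes. The median GC content of the windows, taking the highest where a gene had several, was 58.2% for the 20 members with an induced summit, 58.3% for the 49 without one and 57.3% for all genes. It was 63% for all genes with an induced summit within 300 bp of the start.

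Other genes of mitochondrial translation were counted by the same rule. Of 5 mitochondrial ribosome proteins without an Mrp symbol, 1 held a summit in induced cells, Ptcd3, with 10 fragments over a raised local background, and 0 did in untreated cells. Of 23 assembly genes, 7 (30.4%, against 15.8% of all protein-coding genes) held one in induced cells and 4 (17.4%, against 7.82%) in untreated cells. Malsu1, whose human protein keeps the immature large subunit from joining the small one, held 20 fragments in induced and 10 in untreated cells, inside the gene. Noa1, a GTPase of small subunit assembly, held 17 and 13 in 2 induced peaks and 6 in an untreated one. With gene ends alone, the assembly genes came to 4 of 23 (17.4%, against 8.43%) in induced and 1 (4.35%, against 3.73%) in untreated cells. These lists are short, and their intervals wide: 15.6 to 50.9% for the 7 assembly genes in induced cells.

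Of 13 translation factor genes, 3 (23.1%, 8.18 to 50.3) held a summit in induced cells, against 15.8% of all genes, and 2 (15.4%, 4.33 to 42.2) in untreated cells, against 7.82%. Tufm, the elongation factor that brings transfer RNAs to the ribosome, held 25 fragments in induced and 11 in untreated cells. Mtrf1l, a release factor, held 20 in induced and 11 in untreated cells, and Mtres1 held 4 in induced cells alone. Of 20 mitochondrial aminoacyl-tRNA synthetase and amidotransferase genes, 4 held a summit in induced cells (20%, 8.07 to 41.6, against 15.8% of all genes) and 4 in untreated cells (20%, against 7.82%). In the IgG library 1 did, Lars2. The Lars2 region stood 1.74-fold over a local background of 87.3 fragments in the IgG library. Tufm, Malsu1 and Mtrf1l each held more fragments than any member other than Mrpl45, in both ZFP410 libraries.

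Of the cytosolic ribosomal protein genes, 19 of 84 (22.6%) held a summit in induced cells, near the 25.6% of members, and 4 (4.76%) in untreated cells, below the 10.3% of members and the 7.82% of all protein-coding genes, with 0 in the IgG library. Their strongest induced sites were at Rps21 with 19 fragments, Rps19 with 17 and Rpl13a with 14. Oxidative phosphorylation genes came to 10 of 88 (11.4%) in induced cells and 5 (5.68%) in untreated cells, below the 15.8% of all genes in induced and 7.82% in untreated cells, and were led by Ndufv1, a subunit of complex I, with 26 fragments in induced and 9 in untreated cells. With gene ends alone, the induced shares were 19.0% for cytosolic ribosomal protein genes and 10.2% for oxidative phosphorylation genes, against 24.4% for the mitochondrial ribosomal protein genes. An induced summit within 300 bp of a RefSeq start was held by 13 of 62 cytosolic ribosomal protein genes (21.0%) with a window. For oxidative phosphorylation genes it was 8 of 70 (11.4%), against 26.1% of members and 6.97% of all genes. The differences between these lists were not tested.

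**Figure D5:**
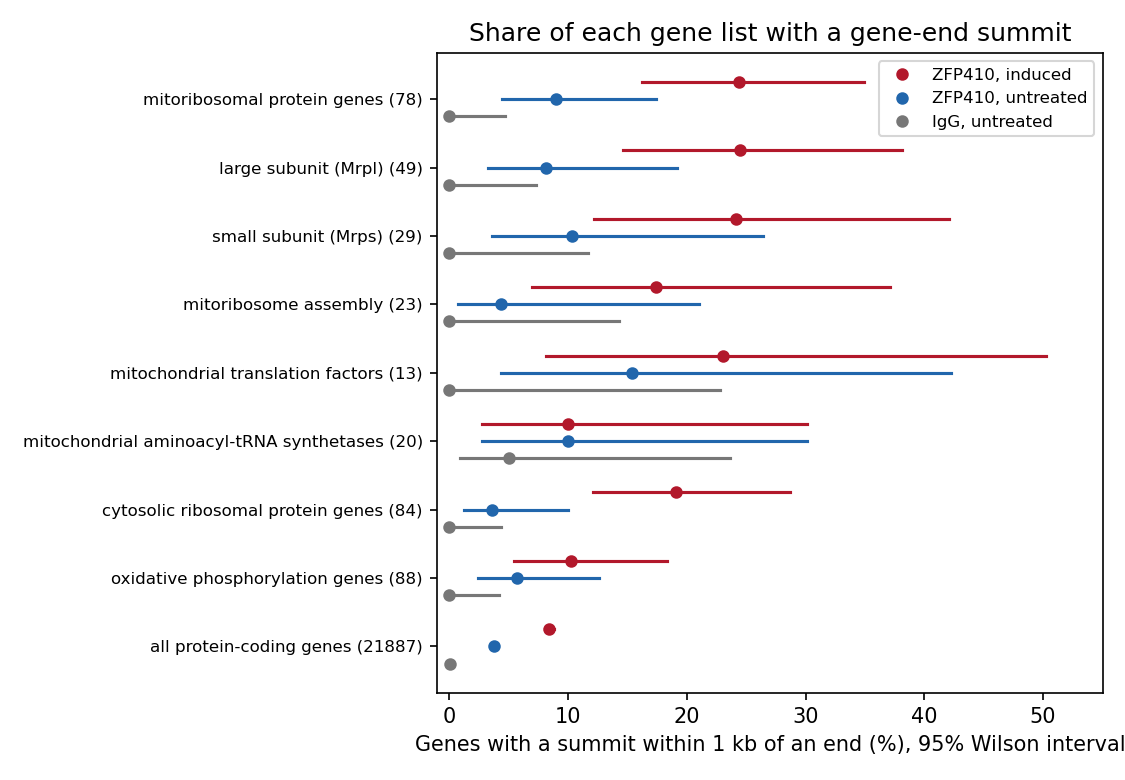
Share of each gene list (number of genes in brackets) with a summit within 1 kb of a gene end in the induced (red), untreated (blue) and IgG (grey) library, with 95% Wilson intervals as bars. The mitochondrial ribosomal protein genes stand at 24.4% in induced and 8.97% in untreated cells, against 8.43% and 3.73% of all protein-coding genes.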

How the data were processed

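The tools behind the lists were Bowtie2 2.2.6, Picard and MACS2 2.1.1, and the build was mm10, as the submitters' processing notes say. The authors deposited 1 peak list per library, each peak with a score, its fold over local background, −log10 p-values and q-values, and a summit position. Peak names in the deposited lists carry a q threshold of 0.1. How duplicates were handled, and what control the caller had, is not stated in the labels or notes used here. Within each list, fold and −log10 values served for ranking and filtering.

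Summit fragments and the local background were solved from each peak's fold and −log10 p, after the form MACS2 uses (fragments plus a pseudocount over background plus the same, and a Poisson tail). They came out whole for 7473 of 7475 induced, 3255 of 3256 untreated and 480 of 480 IgG peaks, to within 0.001 in −log10 p. The genome background, the smallest local one, was 0.246 fragments in the induced, 0.110 in the untreated and 0.0231 in the IgG library. Relative depth came from the step between local backgrounds, taking 1 control for all lists. The recovery of fragments and genome background was checked on peaks simulated from the recovered values by the same formula. That check covers the solving step alone and cannot show that the assumed form is right. The relative depths were not checked. Ratios use fragments over the genome background, with exact binomial 95% intervals. Shares have 95% Wilson intervals, and a share of 0 allows 3 counts. Both cover counting error only.

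Genes came from RefSeq for GRCm38.p6, without exons, so exonic, intronic and UTR positions are not given. Promoter windows were matched by symbol for 69 of 78 members. Trmt61b and Mtrfr had no entry in the gene table. Members and lists were chosen with earlier results of these data known, and no p-value was computed. All occupied members are named. Positions and values are given in full for those in both ZFP410 lists, the 10 of highest fold in each ZFP410 list and those in the IgG list, and up to 4 genes, by fold, were eligible from each other list. Alternatives were stricter peaks, other windows, gene ends alone and other overlap rules. The relaxed NRF1 word, gene ends together with a −log10 q of at least 5, and induced peaks of at least 7 fragments, were chosen after seeing the data. Python 3.11.15, numpy 2.4.6, pandas 2.3.3, scipy 1.17.1 and matplotlib 3.10.9 were used.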

Additional observations from a re-analysis of the deposited data

How the results depend on the processing

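Of 66 alternative values, 45 stayed within 1.5 times the reported count or within the interval of the ratio, and 21 were lower, 0 higher. The occupied members numbered 20 in induced and 8 in untreated cells under windows of 500 and 2000 bp and when any base of a peak counted. A −log10 q of at least 5 left 7 members (8.97%, against 9.01% of all protein-coding genes) in induced cells, 5 large and 2 small subunit genes, and 2 (2.56%, against 2.37%) in untreated cells, 1 of each subunit, with 2 members in both lists. A fold of at least 5 left 11 (14.1%, against 11.6%) in induced cells, 7 large and 4 small, and 4 (5.13%, against 3.94%) in untreated cells, 2 of each, with 2 in both. Gene ends with a −log10 q of at least 5 left 6 (7.69%, against 4.42%) in induced cells, 2 (2.56%, against 1%) in untreated cells and 0 in the IgG library, which gene ends alone also left at 0. Counting only induced peaks of at least 7 fragments, the enrichment of the lowest untreated call, left 8 members (10.3%, against 10.2%). Overlapping sites fell to 3 in each ZFP410 library when 50% of both peaks had to overlap and to 4 when summits had to lie within 100 bp. The cause of these changes was not tested beyond each rule taking fewer peaks. With a −log10 q of at least 5, or at least 7 fragments, the induced share of members was close to that of all genes, as given above. No paired analysis was possible because each group held 1 library. Depth limits the untreated list to sites of at least 3 fragments, and it makes the IgG library uninformative at members other than Mrpl45.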

Other observations

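Upstream of Mrpl45, further ZFP410 peaks lay within 20 kb in both libraries. Induced cells held a peak of 27 fragments at chr11:97310983-97311663 (rank 395), at -4380 bp from the start, and a broader region at chr11:97309390-97310379 of 53 fragments over a high local background (rank 7416), at -6095 bp. Untreated cells held peaks of 6 fragments each, at -4309 and -5345 bp from the start. No IgG peak lay within 20 kb.

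The 6 annotated pseudogenes with Mrpl or Mrps symbols, Mrpl23-ps1, Mrpl27-ps, Mrpl48-ps, Mrps36-ps1, Mrps36-ps2 and Mrps36-ps3, held 0 peaks in each of the 3 lists.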
